A study of Mus musculus with 13 samples.

Results

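The mitochondrial genome (mtDNA) of the mouse is transcribed from both of its strands, and 9 of its transcripts were followed here in developing thymocytes: the light-strand mRNA mt-Nd6, the 2 ribosomal RNAs mt-Rnr1 and mt-Rnr2, and the 6 heavy-strand mRNAs mt-Nd1, mt-Nd2, mt-Co1, mt-Nd4, mt-Nd5 and mt-Cytb. They were chosen by name from the 37 genes of mtDNA and the 47937 genes of the count table, and all 9 passed the filter on low counts in every comparison. RNA was sequenced from DN3 and DN4 thymocytes, the CD4 and CD8 double-negative stages before and after selection for a productive T cell receptor beta chain, sorted fresh and untreated from C57BL/6 mice 6 weeks old. Control mice were Wt;Lck-Cre+ (Wt) and the others Opa1fl/fl;Lck-Cre+ (KO), so that both carried a Cre recombinase under the Lck promoter of the T lineage and only the latter carried floxed alleles of Opa1, the GTPase that fuses the mitochondrial inner membrane and shapes its cristae. There were 3 KO and 3 Wt DN3 libraries and 3 KO and 4 Wt DN4 libraries from 7 mice; mice KO45, KO49, KO51, WT05, WT46 and WT48 gave both stages and mouse WT40 gave DN4 alone. The whole-gene level of Opa1 does not check the genotype: it was 76.9 to 87.8 CPM in KO and 85.0 to 93.6 in Wt DN4 libraries, and 88.4 to 93.7 in KO and 90.9 to 112 in Wt DN3 libraries, so the genotype rests on the label. CPM here is the count of a gene scaled to library sizes adjusted by TMM.

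Libraries held 5926848 to 14148661 counts. T lineage markers were high in all 13 (summed level of the 6 markers 2858 to 4603 CPM), and the 6 DN3 markers summed to 1394 to 2194 CPM in DN3 and 144 to 251 in DN4 libraries. All 9 B cell markers were detected in DN4 libraries and summed to 1227 to 5805 CPM in KO and 1493 to 9343 in Wt, against 289 to 431 in DN3, with the most in the DN4 library of WT48. The DN3 library of WT05 stood apart: 26.0% of its counts lay in genes that overlap nuclear ribosomal RNA, against 0.302 to 1.24% in the other 12. Outside those genes, Lars2 held 8.42% and Gm23935 4.62% of its counts, against at most 0.202% and 0.139% in any other library. Both genes were named after their values were seen. In the same library noncoding RNAs without a poly(A) tail, such as Rn7sk and Rpph1, summed to 431 CPM against 18.8 to 44.2 elsewhere, and histone mRNAs to 929 CPM against 73.2 to 111. Comparisons that use the DN3 Wt libraries are therefore read beside their values without it.

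The heavy-strand promoter gives long precursors that carry both rRNAs and, further along, all mRNAs but one, and tRNAs punctuate the precursor where it is cut. The light-strand promoter gives the mRNA of mt-Nd6, several tRNAs and the primer for replication. The products of the listed mRNAs are subunits of respiratory complexes I (the Nd genes), III (mt-Cytb) and IV (mt-Co1), and the rRNAs form the small (mt-Rnr1) and large (mt-Rnr2) subunit of the mitochondrial ribosome. The libraries were made with a kit that selects poly(A) RNA, while mt-Nd6 is known from human cells to lack a long poly(A) tail and the rRNAs carry short ones, so all levels below are levels of captured RNA.

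On GRCm38 the rRNAs lie first, mt-Rnr1 at chrM:70-1024 and mt-Rnr2 at chrM:1094-2675, followed by mt-Nd1 (chrM:2751-3707), mt-Nd2 (chrM:3914-4951), mt-Co1 (chrM:5328-6872), mt-Nd4 (chrM:10167-11544), mt-Nd5 (chrM:11742-13565) and, past mt-Nd6, mt-Cytb (chrM:14145-15288). Each is a single exon on the annotated plus strand. The exon of mt-Nd6 (chrM:13552-14070) is the one member on the minus strand, and it meets mt-Nd5 tail to tail, with 14 bases in common. The last 30 bases of both genes are shown because reads from this overlap can be told apart by strand only, with the shared bases in capitals, 5′ to 3′ on each gene's own strand.
mt-Nd5: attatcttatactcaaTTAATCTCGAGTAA
mt-Nd6: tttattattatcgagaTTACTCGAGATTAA
The 3′ ends of 2 further mRNAs are shown because the poly(A) tail is part of their reading frame: both end in a single T (capital), which the tail completes to a stop codon, while mt-Nd6 above carries its whole stop codon TAA in the DNA.
mt-Cytb: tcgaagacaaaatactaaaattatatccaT
mt-Nd4: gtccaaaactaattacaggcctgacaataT
The longest run of A within mt-Nd6 was 3 bases, the shortest of the 9 members, against 5 in mt-Rnr1 and mt-Cytb, 6 in mt-Nd1, 7 in mt-Rnr2, mt-Co1, mt-Nd4 and mt-Nd5, and 8 in mt-Nd2. GC content ranged from 34.1% in mt-Nd6 to 39.9% in mt-Co1.

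Reads of some members could also come from, or be assigned to, nuclear copies of mtDNA. Of all 50-base stretches of a gene, the share that also occurred in an annotated nuclear transcript was 0% for mt-Nd6, mt-Rnr1, mt-Nd1 and mt-Cytb, 1.04% for mt-Rnr2, 7.61% for mt-Nd5, 8.19% for mt-Nd2, 51.1% for mt-Co1 and 62.2% for mt-Nd4. For mt-Co2, mt-Atp6, mt-Co3, mt-Nd3 and mt-Nd4l, the heavy-strand mRNAs between mt-Co1 and mt-Nd4, it was 98.0 to 100%, and these 5 genes held 0 to 41 counts in any library, so they are left out of the ratios. The sixth, mt-Atp8, shared none and held 0 to 12 counts. The levels of mt-Co1 and mt-Nd4 are therefore less certain than those of the other members. The strand setting of the counting was not stated. In the table Gm42418, which lies under exons of the opposite strand over at least 99% of its length, held 1793382 counts, while its opposite partners CT010467.1 and AY036118 held 111 and 0.

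Levels were compared between members per length (CPM per kb of gene). In the 4 Wt DN4 libraries mt-Co1 was highest, at 4947 ± 494 CPM per kb (SD, n = 4), followed by mt-Cytb at 2488 ± 359, mt-Nd1 at 1952 ± 317, mt-Nd2 at 1066 ± 203, mt-Nd5 at 796 ± 121 and mt-Nd4 at 596 ± 84.5. The rRNAs came after all 6 mRNAs, mt-Rnr2 at 409 ± 177 and mt-Rnr1 at 276 ± 84.7 CPM per kb, and mt-Nd6 was lowest at 79.9 ± 29.4. The order of the 6 heavy-strand mRNAs held in all 13 libraries. Ranges of neighbours in this order overlapped between mt-Cytb and mt-Nd1, among mt-Nd2, mt-Nd5 and mt-Nd4, and between mt-Nd4, mt-Rnr2 and mt-Rnr1, but not at the steps from mt-Co1 to mt-Cytb, from mt-Nd1 to mt-Nd2 and from mt-Rnr1 to mt-Nd6. In the KO DN4 libraries the mRNAs stood lower and the rRNAs moved up among them: mt-Rnr1 at 255 ± 38.7 CPM per kb (SD, n = 3) lay beside mt-Nd5 at 250 ± 44.3, and mt-Rnr2 at 234 ± 51.8 above mt-Nd4 at 203 ± 50.2, with overlapping ranges at each of these steps.

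**Figure D1:**
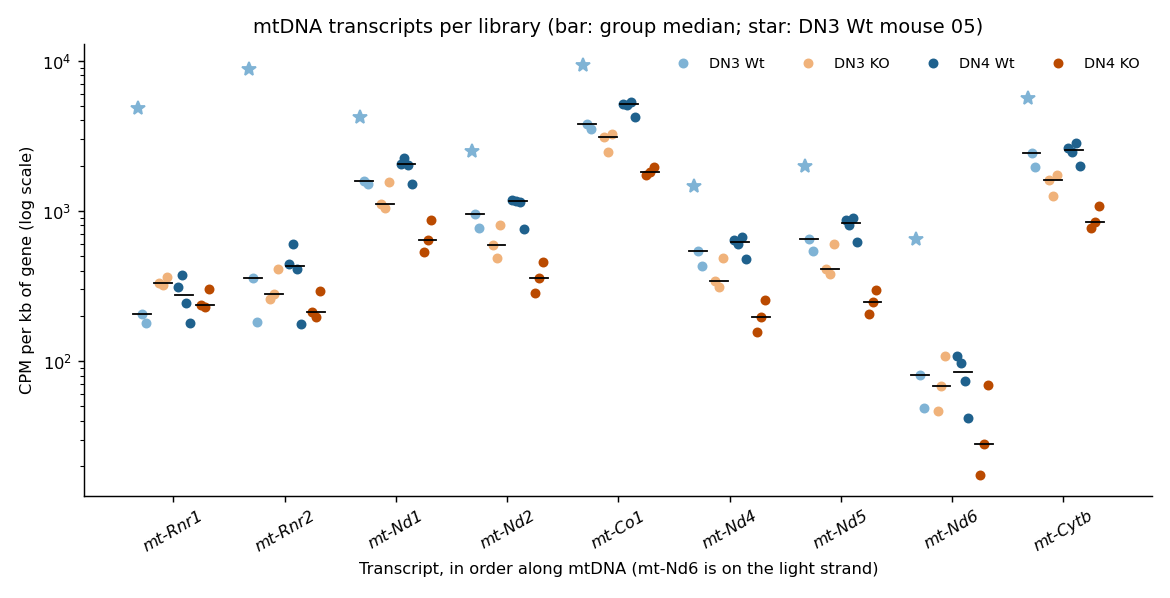
Level of each transcript in each of the 13 libraries, in CPM per kb of gene on a log axis, with genes in their order along mtDNA; points are libraries, black bars group medians and the star is the DN3 library of WT05. In DN4 the 6 heavy-strand mRNAs of the KO libraries lie below those of all Wt libraries, while the rRNAs and mt-Nd6 overlap between genotypes.

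Against the sum of the other heavy-strand mRNAs of the same library, each of the 6 heavy-strand mRNAs kept nearly constant proportions. The SD of this log2 ratio over the 13 libraries was 0.10 for mt-Cytb, 0.13 for mt-Nd1, 0.14 for mt-Nd2 and mt-Nd4, 0.15 for mt-Nd5 and 0.17 for mt-Co1. The log2 ratios of mt-Nd6, mt-Rnr1 and mt-Rnr2 to the heavy-strand mRNAs varied several times more, with SDs of 0.73, 0.97 and 1.02. With the WT05 library of DN3 left out, the SDs were 0.56, 0.71 and 0.54 for mt-Nd6, mt-Rnr1 and mt-Rnr2, and 0.10 to 0.15 for the 6 mRNAs. Counts were ample for this comparison, with 126 to 1151 counts of mt-Nd6 in a library and at least 1567 of any other member.

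The first question was which of the transcripts differed in DN4 between KO and Wt. All 6 heavy-strand mRNAs were lower in every KO library than in every Wt library, while mt-Nd6 and both rRNAs overlapped. Of the 13084 genes tested, 3.13% had all KO libraries below all Wt libraries. mt-Cytb, of complex III, measured 883, 968 and 1224 CPM in the KO libraries and 2288, 2830, 3013 and 3255 CPM in the Wt libraries, and mt-Nd5, of complex I, 378, 454 and 539 CPM against 1139, 1458, 1577 and 1633 CPM. mt-Nd6 measured 9.01, 14.5 and 36.1 CPM in KO and 21.6, 38.0, 50.3 and 56.1 CPM in Wt libraries. The highest KO library of mt-Nd6, from mouse KO51, lay above the lowest Wt library, from WT48. For mt-Rnr1 the KO libraries, at 219, 226 and 286 CPM, lay inside the span of the Wt libraries, at 170, 232, 295 and 358 CPM. For mt-Rnr2 they measured 311, 337 and 464 CPM against 278, 653, 702 and 958 CPM in Wt.

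In edgeR's quasi-likelihood test, adjusted over all genes by the Benjamini-Hochberg method at 0.05, 3 of the 9 members (mt-Cytb, mt-Nd5 and mt-Co1) were lower in KO DN4 libraries and 0 were higher; 0.0535% of all genes tested passed. The log2 fold changes (KO over Wt) of the 6 heavy-strand mRNAs lay close together, from -1.40 ± 0.13 (SE) for mt-Co1 to -1.64 ± 0.18 for mt-Nd5. mt-Nd6 had a log2 fold change of -1.04 ± 0.49 (adjusted p = 0.883 in edgeR), which became -1.78 without the library of KO51 and -0.69 without that of KO45, both short of the threshold. mt-Rnr2 had one of -0.77 ± 0.37 (adjusted p = 0.883) and mt-Rnr1 one of -0.08 ± 0.24 (adjusted p = 0.984). The median over the 9 members was -1.44, beside a median of 0.00 over all genes tested. Here as elsewhere, fewer cells of a type and less RNA per cell cannot be told apart in bulk samples. DESeq2 placed all 6 heavy-strand mRNAs below the threshold and none of the other 3, while a single edgeR fit of all 13 libraries called 0 members. In edgeR fits that left out 1 DN4 library the count was 0, except without WT48, the library richest in B cell markers, where it was 4.

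Marker lists of stage and of other cells were read for the same DN4 libraries. The 6 DN3 markers summed to 221 to 251 CPM in KO and 144 to 199 CPM in Wt, without overlap. Of its members, Notch3 (means of 105 CPM in KO and 52.7 in Wt), Ptcra (42.0 and 28.6) and Il2ra (17.8 and 11.4) had higher means in KO, Dtx1 (54.4 and 58.9) and Hes1 (6.91 and 7.62) lower ones, and Nrarp was at 5.34 in both. The 5 markers of natural killer and innate lymphoid cells summed to 220 to 325 CPM in KO and 331 to 438 CPM in Wt, also without overlap. That sum was nearly all Gzma (179 to 274 CPM in KO and 263 to 360 in Wt) and Nkg7 (36.0 to 45.8 and 60.5 to 74.1 CPM, without overlap), both of which DN3 libraries also held. Klrb1c, Klrk1 and Ncr1 lay between 0.10 and 4.49 CPM in DN4, with overlapping ranges, and at 0 in DN3. The 6 markers of DN4 and later stages summed to 1104 to 3357 CPM in KO and 570 to 2145 CPM in Wt, and the B cell markers overlapped as given above. Their part in the levels of the mtDNA transcripts was not tested.

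**Figure D2:**
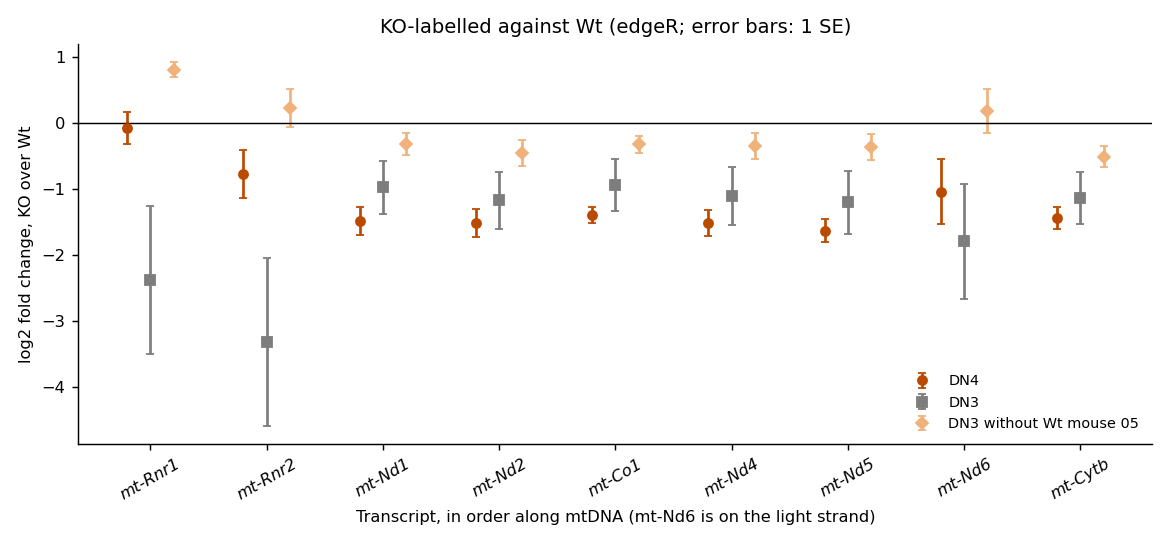
Log2 fold change of KO over Wt for each transcript from edgeR, with bars of 1 SE, in DN4 (3 against 4 libraries), in DN3 (3 against 3) and in DN3 without the library of WT05 (3 against 2). The 6 heavy-strand mRNAs lie between -1.40 and -1.64 in DN4, where mt-Rnr1 lies at -0.08; in DN3 the values of mt-Rnr1, mt-Rnr2 and mt-Nd6 change sign when the library of WT05 is left out.

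A ratio within a library does not depend on how library sizes are scaled, and the rRNAs were set against the 6 heavy-strand mRNAs in this way. In DN4 the rRNA counts amounted to 11.3%, 9.66% and 11.6% of the heavy-strand mRNA counts in KO mice KO45, KO49 and KO51. In Wt mice WT05, WT40, WT46 and WT48 they amounted to 6.01%, 8.05%, 5.15% and 3.49%. All 3 KO libraries thus lay above all 4 Wt libraries, with means of 10.9 ± 1.07% (SD, n = 3) and 5.68 ± 1.90% (SD, n = 4). The difference was 0.998 ± 0.265 (SE) on the log2 scale, a 2.00-fold higher ratio in KO, with p = 0.0571 in a two-sided exact permutation test over libraries, whose smallest possible p is 0.0286, and an adjusted p of 0.171 over the 6 ratios of this comparison. The test therefore did not pass the threshold. With only mt-Nd1 and mt-Cytb, the heavy-strand mRNAs without stretches in annotated nuclear transcripts, as the denominator, the difference was 1.01. Leaving out 1 library at a time it ranged from 0.79, without WT48, to 1.19, without WT40. Noncoding RNAs without a poly(A) tail had summed levels that overlapped, 24.5 to 31.4 CPM in KO and 23.9 to 44.2 CPM in Wt DN4 libraries; histone mRNAs summed to 99.4 to 111 CPM in KO and 85.4 to 107 CPM in Wt.

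The 2 rRNAs did not keep a fixed ratio to each other. The count of mt-Rnr1, the small-subunit rRNA, was 67.3%, 70.5% and 61.7% of that of mt-Rnr2, the large-subunit rRNA, in the KO DN4 libraries of KO45, KO49 and KO51. It was 42.1%, 37.4%, 35.6% and 61.3% in the Wt DN4 libraries of WT05, WT40, WT46 and WT48. The ranges did not overlap, but WT48 came within the distance between KO replicates. The difference was 0.63 ± 0.19 (SE) on the log2 scale, with p = 0.0571 in the two-sided exact permutation test and an adjusted p of 0.171. Per length the 2 rRNAs were nearly equal in KO DN4 libraries, with mt-Rnr1 at 102.3% to 117% of mt-Rnr2, while it was at 59.0% to 101.5% in Wt.

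The light-strand mt-Nd6 was set against the same denominators. In DN4 it amounted to 0.181%, 0.264% and 0.561% of the heavy-strand mRNA counts in KO45, KO49 and KO51. The Wt values were 0.339%, 0.308%, 0.221% and 0.168% in WT05, WT40, WT46 and WT48. KO51 was the highest and WT48 the lowest of the 7, and the genotypes overlapped. The difference in log2 ratio was 0.27 ± 0.53 (SE), with p = 0.657 in the exact permutation test. Against its tail-to-tail neighbour mt-Nd5, mt-Nd6 counted 2.39% to 6.69% in KO and 1.89% to 3.56% in Wt, a log2 difference of 0.45 ± 0.49 (exact permutation p = 0.429). Against the rRNAs it counted 1.60%, 2.74% and 4.81% in KO and 5.63%, 3.82%, 4.29% and 4.82% in Wt, with 2 of 3 KO libraries below all Wt libraries and a log2 difference of -0.73 ± 0.47 (exact permutation p = 0.114, adjusted p = 0.229). None of these ratios of mt-Nd6 differed beyond the spread between libraries.

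Genotypes were also compared by distance from the heavy-strand promoter. The sum of mt-Nd5 and mt-Cytb, which lie far from the promoter, was 135% to 157% of the sum of mt-Nd1 and mt-Nd2, which lie near it, in KO DN4 libraries and 128% to 156% in Wt. The log2 difference was 0.0025 ± 0.090 (SE), with p = 0.971 in the exact permutation test.

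**Figure D3:**
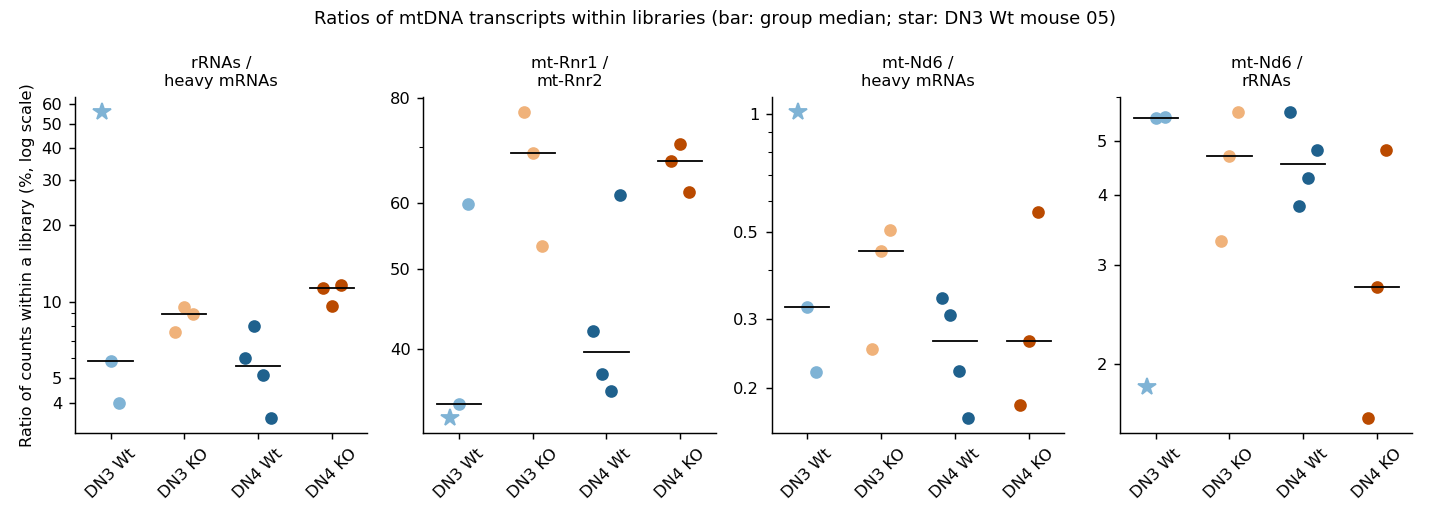
Ratios of counts within each library, in percent on a log axis, for the rRNAs to the heavy-strand mRNAs, mt-Rnr1 to mt-Rnr2, mt-Nd6 to the heavy-strand mRNAs and mt-Nd6 to the rRNAs; points are libraries, bars group medians and the star is the DN3 library of WT05. In DN4 the ratio of rRNAs to heavy-strand mRNAs is 9.66 to 11.6% in KO and 3.49 to 8.05% in Wt, while both ratios of mt-Nd6 overlap between genotypes.

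In DN3 the comparison of genotypes turns on the library of WT05. Its rRNA counts were 55.6% of its heavy-strand mRNA counts, against 5.84% and 3.995% in the DN3 libraries of WT46 and WT48 and 7.61%, 9.54% and 8.95% in KO45, KO49 and KO51. mt-Rnr2 measured 13919 CPM in WT05 and 288 to 647 CPM in the other 5 DN3 libraries, mt-Rnr1 4608 against 172 to 344 CPM, and mt-Nd6 336 against 24.0 to 55.8 CPM. The heavy-strand mRNAs were also higher there, though less so, with mt-Cytb at 6494 CPM against 1441 to 2758 CPM. Within that library mt-Nd6 was 1.01% of the heavy-strand mRNAs, the highest of all 13, and 1.82% of the rRNAs, the lowest in DN3. Ribosomal, histone and other RNAs without a poly(A) tail were raised in the same library, as given above, and their part in these values was not tested.

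With all DN3 libraries 0 of the 9 members passed in edgeR, where 0% of 12105 genes did; 7 members had an unadjusted p under 0.05, as did 1.39% of all genes, and DESeq2 and limma-voom also called 0. The log2 fold changes (KO over Wt) were -2.38 ± 1.12 (SE) for mt-Rnr1, -3.32 ± 1.27 for mt-Rnr2, -1.80 ± 0.87 for mt-Nd6 and -0.94 to -1.21 for the 6 heavy-strand mRNAs. Without the library of WT05 the first 3 changed sign, to 0.81, 0.22 and 0.18, and the heavy-strand mRNAs lay between -0.32 for mt-Nd1 and -0.51 for mt-Cytb, with 0 members past the threshold (mt-Rnr1 adjusted p = 0.330 in edgeR). mt-Co1 and mt-Cytb were lower in all 3 KO than in all 3 Wt DN3 libraries, as were 3.49% of the genes tested; mt-Cytb measured 1441, 1838 and 1991 CPM against 2246, 2758 and 6494 CPM. Against WT46 and WT48 alone the same 2 members were lower in all KO libraries, as were 7.89% of the genes tested, and mt-Rnr1 was higher in all 3 KO libraries, as were 7.77% of the genes tested.

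The ratio of rRNAs to heavy-strand mRNAs in DN3 had a log2 difference (KO minus Wt) of -0.33 ± 1.19 (SE) with all libraries, p = 1 in the exact permutation test, and of 0.84 without WT05, where all 3 KO libraries lay above the remaining 2 Wt libraries (p = 0.10, the smallest that 3 against 2 can give). mt-Rnr1 was 77.0%, 68.8% and 53.2% of mt-Rnr2 in the 3 KO mice in the same order and, of the Wt mice, 33.1% in WT05, 34.4% in WT46 and 59.8% in WT48, a log2 difference of 0.68 ± 0.32 (p = 0.20, adjusted p = 0.90, exact permutation test), or 0.53 without WT05. The value of WT48 was high at both stages, as was that of the KO mice. mt-Nd6 was 0.252%, 0.448% and 0.504% of the heavy-strand mRNAs in KO and, apart from WT05, 0.321% and 0.220% in Wt, a log2 difference of -0.11 ± 0.73 with WT05 and 0.53 without it. With 3 against 3 libraries the exact permutation test cannot go below p = 0.10.

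The second question was how the transcripts changed from DN3 to DN4. In KO mice the 6 heavy-strand mRNAs were lower in DN4, by log2 fold changes (DN4 over DN3) from -0.70 ± 0.15 (SE) for mt-Co1 to -0.92 ± 0.22 for mt-Nd4, and all 6 passed in edgeR (adjusted p from 0.0157 to 0.0448), where 18.6% of 12580 genes did. The 9 B cell markers summed to 340 to 383 CPM in DN3 and 1227 to 5805 CPM in DN4 libraries of these mice, and their part in the change between stages was not tested. mt-Nd6 changed by -0.98 ± 0.50 (adjusted p = 0.218), mt-Rnr1 by -0.42 ± 0.13 (adjusted p = 0.0624) and mt-Rnr2 by -0.45 ± 0.21 (adjusted p = 0.177). With the mouse as a replicate block, since the 2 libraries of a mouse are paired, all 9 members passed, in a fit where 35.8% of all genes did: mt-Nd6 had a log2 fold change of -1.11 (adjusted p = 0.00114), mt-Rnr1 of -0.43 (adjusted p = 0.00426) and mt-Rnr2 of -0.45 (adjusted p = 0.00252). The unpaired count of 6 fell to 2 without the DN3 library of KO51 and to 3 without the DN4 library of KO45 or that of KO49, and it was 0 when all 13 libraries shared 1 fit. mt-Nd6 was lower in DN4 in each KO mouse, from 24.0 to 9.01 CPM in KO45, from 35.2 to 14.5 CPM in KO49 and from 55.8 to 36.1 CPM in KO51. It was also lower in DN4 in each Wt mouse with both libraries, from 336 to 56.1 CPM in WT05, from 42.0 to 38.0 CPM in WT46 and from 25.4 to 21.6 CPM in WT48.

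In Wt mice 0 of 9 members passed in edgeR, where 22.9% of 12691 genes did; 2 members, mt-Rnr1 and mt-Rnr2, had an unadjusted p under 0.05, against 35.5% of all genes, and DESeq2 and limma-voom called 0. Their log2 fold changes (DN4 over DN3), -2.68 ± 1.04 (SE) and -2.96 ± 1.16, became 0.49 and 0.56 when the WT05 library of DN3 was left out. mt-Nd6 went from -1.70 ± 0.80 to 0.26, and the 6 heavy-strand mRNAs from between -0.20 and -0.47 to between 0.15 and 0.40. These last values set 4 DN4 against 2 DN3 libraries without pairing, and so include the DN4 libraries of WT05 and WT40, which then have no DN3 partner. Within the pairs of WT46 and WT48, mt-Nd6 was lower in DN4 in both, as given above, and mt-Rnr2 went from 568 to 653 CPM in WT46 and from 288 to 278 CPM in WT48. The interaction of stage and genotype was not past the threshold for any member in edgeR (0 of 9, 0% of 13361 genes, 0 members at an unadjusted p under 0.05, and 0 in DESeq2 and limma-voom). With all libraries it was 2.25 ± 1.21 (SE) on the log2 scale for mt-Rnr1, 2.49 ± 1.35 for mt-Rnr2, 0.70 ± 1.08 for mt-Nd6 and -0.35 to -0.55 for the heavy-strand mRNAs. Without the DN3 library of WT05 it was -0.95 to -1.28 on the log2 scale for the heavy-strand mRNAs, -1.23 for mt-Nd6, -0.90 for mt-Rnr1 and -1.01 for mt-Rnr2, again with 0 past the threshold (smallest adjusted p 0.802, for mt-Co1).

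The within-mouse change of the ratios, DN4 minus DN3, used the 6 mice with both libraries. The log2 ratio of rRNAs to heavy-strand mRNAs changed by 0.58 in KO45, 0.017 in KO49 and 0.38 in KO51. It changed by -3.21 in WT05, -0.18 in WT46 and -0.20 in WT48. The difference between genotypes was 1.52, with p = 0.10 in the exact permutation test, the smallest it allows, and an adjusted p of 0.60; without WT05 it was 0.51. Between the KO groups this ratio did not overlap, at 7.61 to 9.54% in DN3 and 9.66 to 11.6% in DN4, a log2 difference of 0.32 ± 0.13 (exact permutation p = 0.10, again the smallest possible, adjusted p = 0.60).

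The log2 ratio of mt-Nd6 to the heavy-strand mRNAs was lower in DN4 than in DN3 in 5 of the 6 mice, by values from -0.39 in WT48 to -1.58 in WT05, and higher by 0.15 in KO51. Differences between KO and Wt mice in this change were 0.48 on the log2 scale (exact permutation p = 0.50) and 0.11 without WT05. Against the rRNAs mt-Nd6 changed by -1.05, -0.78 and -0.23 in KO45, KO49 and KO51 and by -0.36 and -0.20 in WT46 and WT48, and by 1.63 in WT05, for a difference between genotypes of -1.04 (exact permutation p = 0.20, adjusted p = 0.60), or -0.41 without WT05.

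**Figure D4:**
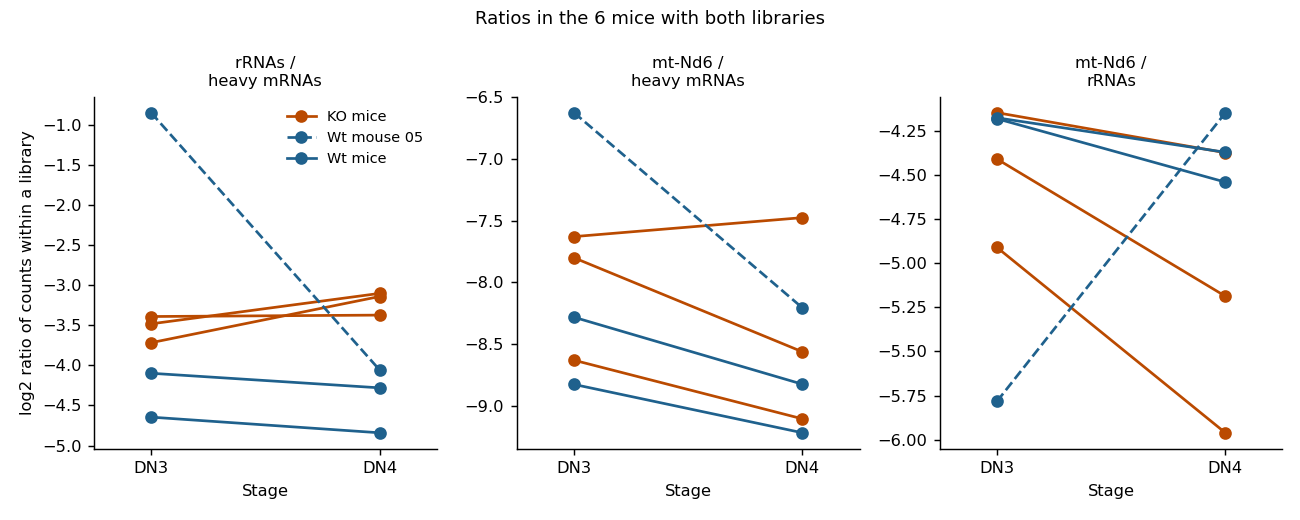
Log2 ratios of counts within a library in DN3 and DN4 for the 6 mice that gave both, for the rRNAs to the heavy-strand mRNAs, mt-Nd6 to the heavy-strand mRNAs and mt-Nd6 to the rRNAs; each line is a mouse, dashed for WT05. The first ratio changes by 0.017 to 0.58 in KO mice and by -0.18 to -3.21 in Wt mice, and the second is lower in DN4 in 5 of 6 mice.

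The tRNAs of both strands were near the limit of detection, as short RNAs are in such libraries. The 8 light-strand tRNAs summed to 17 to 121 counts in a library and the 14 heavy-strand tRNAs to 31 to 255 counts, against 59189 to 218255 counts of the 6 heavy-strand mRNAs. Those with at least 10 counts in the median library were mt-Tq and mt-Tp on the light strand, at medians of 11 and 30 counts, and mt-Tl1, mt-Tm, mt-Tw and mt-Tt on the heavy strand, at 37, 17, 42 and 24 counts. Of those tested in a comparison, 0 passed in edgeR. At an unadjusted p under 0.05 stood 1 of them in DN4 (mt-Tw), where 5.46% of all genes did, 1 in DN3 (mt-Tm, 1.39%), 1 between stages in Wt (mt-Tm, 35.5%), 1 between stages in KO (mt-Tw, 33.0%) and 0 in the interaction. The counts in DN3, between stages in Wt and in the interaction include the DN3 library of WT05 and are not given without it. Log2 fold changes of these tRNAs (KO over Wt) in DN4 were -0.83 ± 0.59 (SE) for mt-Tq and -0.70 ± 0.52 for mt-Tp, and between -1.02 and -2.02 for the 4 of the heavy strand. In the DN3 library of WT05 the light-strand tRNAs reached 121 counts, the most of all libraries, in the library with the fewest counts in total.

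The other genes past the threshold in KO DN4 libraries were also of mtDNA sequence. The 7 genes called were the 3 members and 4 annotated nuclear copies on chromosome 1, named here after their values were seen: Gm29216, which shares 50-base stretches with mt-Co1, Gm28661 with mt-Co2, Gm10925 with mt-Atp6 and Gm28437 with mt-Co3. Their log2 fold changes (KO over Wt) ran from -1.60 ± 0.16 (SE) for Gm29216 to -1.86 ± 0.19 for Gm28437. Gm28661 held 139 to 222 counts in KO and 368 to 701 in Wt DN4 libraries, more than mt-Co2 itself, which held 6 to 41 counts in any library. The 14 nuclear copies together held 613 to 926 counts in KO and 1481 to 2825 in Wt DN4 libraries. Which of these reads came from mtDNA was not tested. Copies of the other members were low, with Gm13339 (mt-Nd2) at 0 to 10 counts, Gm4076 and Gm11407 (mt-Nd5) at 0 to 4 and Gm20594 (mt-Rnr2) at 0 to 1, while Gm28439 (mt-Nd4) held 28 to 204 and Gm13340 (mt-Co1) 48 to 170 counts.

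The nuclear genes that act on these transcripts were read from 3 lists. Of 11 genes of mtDNA transcription, such as the polymerase Polrmt and the factors Tfam and Tfb2m, 0 passed in edgeR in KO against Wt in DN4 (median log2 fold change 0.07), in DN3 or in the interaction, with 0, 1 and 1 at an unadjusted p under 0.05, where 5.46%, 1.39% and 3.59% of all genes were. Of 28 genes of RNA processing and stability, of which 25 were in the table, 0 passed in any of the 3, with 1, 0 and 2 at an unadjusted p under 0.05, and the median in DN4 was -0.04. Of 14 genes of mtDNA maintenance, 0 passed, with 1, 0 and 2 at an unadjusted p under 0.05, and the median in DN4 was 0.00. Without the DN3 library of WT05, 0 genes of the 3 lists passed in DN3 or in the interaction, where 0% of all genes did. At an unadjusted p under 0.05 stood then only Polrmt in DN3, and Polrmt, Mterf4 and Slc25a36 in the interaction. From DN3 to DN4, 1, 5 and 2 genes of the 3 lists passed in Wt, where 22.9% of all genes did, and 1, 2 and 3 in KO, where 18.6% did, so the lists stood near or below the share of all genes. The single genes below are given as values of their own. Tefm, the elongation factor of the mitochondrial polymerase, was lower in DN4 by log2 fold changes of -1.16 ± 0.21 (SE) in Wt and -1.22 ± 0.19 in KO. 1110008L16Rik, the nuclease subunit of mitochondrial RNase P, changed by -0.58 ± 0.12 in Wt and -0.68 ± 0.13 in KO, and both passed. Lrpprc, which binds and stabilises the heavy-strand mRNAs, changed by -0.58 ± 0.14 in Wt (adjusted p = 0.0188) and -0.46 ± 0.17 in KO (adjusted p = 0.103). Polg, the mtDNA polymerase, rose by 1.05 ± 0.11 in Wt and 1.17 ± 0.11 in KO, while Twnk, the replicative helicase, changed by -0.79 ± 0.12 and -0.62 ± 0.12, and all 4 values passed. Without the WT05 library of DN3 the Wt values were -1.37 for Tefm, -0.59 for 1110008L16Rik, -0.43 for Lrpprc, 1.12 for Polg and -0.78 for Twnk, each still past the threshold in edgeR, and 2, 7 and 3 genes of the lists passed, where 25.7% of all genes did.

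The genes outside mtDNA whose levels ran most like those of the members differed between the strands and classes. Over the 13 libraries, among 9234 genes of at least 10 CPM, the log2 CPM of mt-Cytb correlated best with Gm29216 (Pearson's r 0.942) and Gm28661 (0.942), 2 of the nuclear copies, and then with Ap2a2 (0.916). For mt-Nd6 the nearest were Fam120a (0.948), Dhx9 (0.944) and Opa1 (0.937), and for mt-Rnr2 Zfp451 (0.973), Ccar1 (0.962) and Zbtb44 (0.956). These points share libraries, mice and depth, and the last 2 sets leaned on the WT05 library of DN3. When it was left out, the r of Opa1 with mt-Nd6 was 0.845 and that of Zfp451 with mt-Rnr2 0.790, and the nearest genes were Psmd5 for mt-Nd6 (0.900) and Alg10b for mt-Rnr2 (0.841).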

How the data were processed

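RNA of sorted thymocytes was sequenced from stranded poly(A) libraries (TruSeq stranded mRNA). The deposited table holds raw read counts per gene, which the authors made with STAR and featureCounts on mm10, per the labels; versions, the strand setting and the handling of multiply mapped reads are not given in the sources used here. Counts were used as deposited for 47937 genes in 13 columns, each joined to its sample by its label, with 0 unused columns. Names and positions came from GENCODE M21 (GRCm38), where 47310 identifiers matched without version.

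edgeR 4.0.16 (R 4.3.3) was run separately on the groups of each comparison, after filterByExpr (minimum count 10) and TMM; Benjamini-Hochberg adjustment covered all genes tested, with a threshold of 0.05. Ratios were log2((a + 0.5)/(b + 0.5)) of counts within a library, tested by two-sided exact permutation over libraries and adjusted over the 6 ratios of a comparison. Group values are means ± SD. DESeq2 1.42.0, limma 3.58.1, other scalings and filters, pseudocounts and left-out libraries were alternatives. p-values measure the spread between these mice.

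The 2 libraries of a mouse are paired by the labels, and deviations from group means over 13361 genes correlated within each of the 6 mice (r 0.124 to 0.460). No 2 libraries of a group agreed within sampling noise (chi-square per degree of freedom at least 5.85). The edgeR step was tested on simulated data. The members, named genes, gene lists and tests were chosen with earlier results of these data known. The named genes were the 9 members, other mtDNA genes, Opa1, nuclear copies that share sequence with a member, list genes with the largest changes between stages, and the 3 genes most like mt-Nd6, mt-Cytb and mt-Rnr2. Genes that overlap nuclear rRNA and the fit without them were set after the counts were seen.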

Additional observations from a re-analysis of the deposited data

Results flagged for a closer look

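In Wt DN4 libraries the level of mt-Nd2 was lowest in the library of WT48, at 792 CPM against 1197 to 1233 CPM in the other 3. Its gap to the nearest library was 0.918 of the group's whole range, beyond Dixon's 95% limit for 4 libraries. WT48 was also the lowest of the 4 for the other 8 members, for example mt-Co1 at 6525 CPM against 7887 to 8249 and mt-Cytb at 2288 against 2830 to 3255. The gap of mt-Nd2 was 1 of 15 values tested in this way, and chance flags about 1 in 20. The same library had the most B cell markers (9343 CPM summed) and the lowest ratio of rRNAs to heavy-strand mRNAs (3.49%), and the part of those cells in these values was not tested.

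The within-mouse change of the ratio of rRNAs to heavy-strand mRNAs from DN3 to DN4 was above 0 in all 3 KO mice and below 0 in all 3 Wt mice, a difference of 1.52 on the log2 scale (exact permutation p = 0.10, the smallest that 3 against 3 allows). Without WT05, whose DN3 library held 26.0% of counts in genes overlapping nuclear rRNA, the difference was 0.51 (exact permutation p = 0.20).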

How the results depend on the processing

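In DN4 the count of members lower in KO was 3, and it became 6 when every gene with at least 1 count was kept, 6 with DESeq2 and 0 when all 13 libraries shared 1 fit. In that shared fit 2 members, mt-Rnr1 and mt-Rnr2, passed between stages in Wt and 0 in KO. Leaving out 1 library at a time, the count ranged from 0 to 4 in DN4 and from 2 to 8 between stages in KO. With the mouse as a replicate block, which leaves out WT40 as it has no DN3 library, 9 members passed between stages in KO against 6 without it; the counts in Wt and in the interaction stayed at 0. The fit without genes that overlap nuclear rRNA, chosen after seeing the data, left all 5 counts of members as they were. The lists of nuclear genes without the DN3 library of WT05 were also read after seeing the data.

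Some values changed sign under other settings. With library totals in place of TMM the log2 fold changes between stages in Wt were 0.0014 for mt-Nd5, 0.053 for mt-Nd1 and 0.18 for mt-Co1, against -0.44, -0.34 and -0.20. The interaction of mt-Nd6, 0.70 ± 1.08 (SE), was -0.62 with limma-voom and -0.086 with the replicate block. The DN3 log2 ratio of mt-Nd6 to mt-Nd5 (KO minus Wt) was 0.0024 with a pseudocount of 10. The cause was not tested.

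With 1 library left out, log2 fold changes (KO over Wt) ranged from -0.26 to 0.094 for mt-Rnr1 in DN4 and, in DN3, from -2.29 to 0.18 for mt-Nd6, from -2.91 to 0.81 for mt-Rnr1 and from -3.87 to 0.22 for mt-Rnr2. Between stages in Wt they ranged from -2.20 to 0.26 for mt-Nd6, -0.75 to 0.39 for mt-Nd5, -0.73 to 0.15 for mt-Cytb, -0.59 to 0.30 for mt-Nd1, -0.72 to 0.27 for mt-Nd2, -0.78 to 0.26 for mt-Nd4, -0.45 to 0.40 for mt-Co1, -3.21 to 0.49 for mt-Rnr1 and -3.51 to 0.56 for mt-Rnr2. The interaction ranged from -1.23 to 1.20 for mt-Nd6, -0.90 to 2.78 for mt-Rnr1 and -1.01 to 3.05 for mt-Rnr2. In DN3, between stages in Wt and in the interaction, the sign turned when the DN3 library of WT05 was the one left out, and that of the mt-Nd6 interaction also without the DN4 library of KO51 (-0.043).

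Log2 ratios within libraries ranged likewise. For mt-Nd6 to the heavy-strand mRNAs they ran from -0.18 to 0.63 in DN4 and -0.56 to 0.53 in DN3 (KO minus Wt) and from -0.81 to 0.0011 between stages in KO. For the rRNAs to the heavy-strand mRNAs they ran from -1.06 to 0.84 in DN3 and -1.73 to 0.17 between stages in Wt. For mt-Rnr1 to mt-Rnr2 they ran from -0.094 to 0.35 between stages in Wt and -0.13 to 0.13 in KO. For mt-Nd6 to the rRNAs they ran from -0.31 to 0.49 in DN3 and -0.26 to 0.54 between stages in Wt, and for mt-Nd6 to mt-Nd5 from -0.39 to 0.54 in DN3 and -0.66 to 0.081 between stages in KO. For promoter-distal to proximal mRNAs they ran from -0.057 to 0.054 in DN4, -0.025 to 0.091 between stages in KO and -0.012 to 0.084 in the interaction.

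Groups of 3 or 4 libraries limit the exact permutation tests, which cannot go below p = 0.0286 (3 against 4) or 0.10 (3 against 3). Poly(A) selection and shared sequence with nuclear copies limit comparisons between classes of transcripts, and low counts limit the precision of the tRNA values.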
